A study of Rattus norvegicus with 23 samples.

Results

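The genes described are the organic ion and drug transporters on a rat expression array: every gene with a single symbol in the solute carrier families Slc22, Slco and Slc47 or in the ATP-binding cassette families Abcb, Abcc and Abcg. The rule used symbols only and found 52 of the 14217 genes with a single symbol, 16 in Slc22, 13 in Slco, 1 in Slc47, 7 in Abcb, 9 in Abcc and 6 in Abcg. A probe set is the group of short probes that measures 1 transcript, and each gene was read from its brightest one, by the mean of the 23 arrays. Of the 52, 37 had 1 probe set and 15 had 2 or more. A list of 20 well-known kidney transporters was named whatever its values, and 17 of them were measured this way.

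In the proximal tubule, uptake carriers on the blood side and exporters on the urine side work in series to move drugs, toxins, hormone conjugates and urate from blood to urine. SLC22 carriers take up organic anions, cations, carnitine and urate, the OATP carriers of the Slco family take up larger amphipathic anions and steroid conjugates, and the MATE carrier Slc47a1 exchanges organic cations for protons. ABC proteins of the B, C and G families use ATP to pump conjugates, drugs, lipids and urate out of cells or between compartments, and some have other roles, such as the sulfonylurea receptors Abcc8 and Abcc9.

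The samples were whole kidneys of male rats of the strains SBN/y and SBH/y, which belong to the Sabra rat model, in which SBH/y is the line prone to salt-induced hypertension. The series addresses the pathophysiology of proteinuria. Each strain was studied with both kidneys in place after sham surgery (5 samples of SBN/y, 6 of SBH/y) and with 1 kidney left after uninephrectomy (6 samples of each strain). All animals ate standard chow and were 4 months old at collection, 3 months after the operation. One array was run per sample, and since the labels say nothing more on how samples relate to animals, p-values reflect only the spread among samples. Values are log2 levels, so a difference of 1 is a change of 2-fold, and errors beside differences are standard errors from the fit. Levels of different probe sets are not on a common scale and are not ranked against each other.

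All 23 arrays had medians between 4.65 and 4.69, and arrays of the same group correlated at 0.990 to 0.997. SBH/y with 2 kidneys replicate 3 and SBH/y with 1 kidney replicate 2 stood at opposite ends of the second principal component, which held 13.4% of the variance; calls that are lost without them are given with both values. The gap between the 3' and 5' GAPDH control probe sets, a measure of RNA or labelling quality, moved with the groups. It averaged 0.35 in SBN/y with 2 kidneys, 0.45 in SBN/y with 1, 0.46 in SBH/y with 2 and 0.53 in SBH/y with 1. The kidney label was borne out by 18 proximal tubule markers, whose mean level lay between 10.43 and 10.57 on all arrays. Xist, an RNA made in females, read 2.14 to 3.13 in these male kidneys. In 7 genes (Abcb11, Abcg8, Slc22a3, Slco1a5, Slco1b2, Slco1c1 and Slco6b1) all 4 group means lay within that range, and no difference was called for them. In whole tissue, fewer cells of a type and less RNA per cell cannot be told apart.

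The promoters of 6 genes with called differences are printed here. They are not the 6 largest, since Slc22a4, Slc22a12 and Abcb10 differed more between strains than several of them. Slco1a1, Slco1a3 and Slco1a6 are immediate neighbours, each called in at least 1 comparison. Slc22a13 and Slc22a25 were lower in SBH/y and fell there with the operation, and Abcc2 was higher and rose. Each window runs from 250 bases before to 50 bases after the gene's start and was taken from RefSeq for build GRCr8, a different source from the arrays, whose build is not given in the sources used here. The windows are Slco1a1 at chr4:176681943-176682242, minus strand, Slco1a3 at chr4:176749674-176749973, minus strand, Slco1a6 at chr4:176838983-176839282, minus strand, Slc22a13 at chr8:127811701-127812000, minus strand, Slc22a25 at chr1:214862291-214862590, minus strand and Abcc2 at chr1:252613625-252613924, plus strand. Capitals mark the letters of 3 short motifs on either strand: GTTAAT, the half-site of the tubular and hepatic factor HNF1, AGGTCA, the half-site of nuclear receptors, and CAAAGT, a core of HNF4-type sites.
Slco1a1: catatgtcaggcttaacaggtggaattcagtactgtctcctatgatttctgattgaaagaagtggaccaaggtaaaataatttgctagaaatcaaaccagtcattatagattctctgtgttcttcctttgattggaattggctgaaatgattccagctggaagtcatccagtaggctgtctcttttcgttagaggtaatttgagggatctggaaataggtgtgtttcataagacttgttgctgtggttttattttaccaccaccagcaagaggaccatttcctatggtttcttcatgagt
Slco1a3: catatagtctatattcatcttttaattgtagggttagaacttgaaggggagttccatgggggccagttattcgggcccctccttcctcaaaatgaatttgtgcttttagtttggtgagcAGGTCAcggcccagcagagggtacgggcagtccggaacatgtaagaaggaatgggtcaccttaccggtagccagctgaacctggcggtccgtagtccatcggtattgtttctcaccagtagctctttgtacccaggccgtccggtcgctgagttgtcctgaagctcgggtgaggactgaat
Slco1a6: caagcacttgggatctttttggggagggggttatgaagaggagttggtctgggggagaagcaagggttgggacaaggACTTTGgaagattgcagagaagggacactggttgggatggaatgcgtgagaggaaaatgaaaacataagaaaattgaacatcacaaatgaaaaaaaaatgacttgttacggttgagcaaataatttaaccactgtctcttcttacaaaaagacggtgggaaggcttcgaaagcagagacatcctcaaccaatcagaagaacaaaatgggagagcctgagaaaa
Slc22a13: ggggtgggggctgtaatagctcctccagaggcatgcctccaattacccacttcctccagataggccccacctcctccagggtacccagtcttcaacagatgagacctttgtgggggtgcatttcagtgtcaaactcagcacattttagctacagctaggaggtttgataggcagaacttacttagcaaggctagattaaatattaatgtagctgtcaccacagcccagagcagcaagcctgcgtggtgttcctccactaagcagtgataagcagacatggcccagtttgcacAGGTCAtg
Slc22a25: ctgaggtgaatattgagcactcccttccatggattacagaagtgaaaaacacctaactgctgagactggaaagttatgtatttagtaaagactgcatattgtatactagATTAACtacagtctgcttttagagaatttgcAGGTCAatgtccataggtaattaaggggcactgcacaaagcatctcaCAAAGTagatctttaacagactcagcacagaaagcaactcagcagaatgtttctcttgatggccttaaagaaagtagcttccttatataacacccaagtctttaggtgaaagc
Abcc2: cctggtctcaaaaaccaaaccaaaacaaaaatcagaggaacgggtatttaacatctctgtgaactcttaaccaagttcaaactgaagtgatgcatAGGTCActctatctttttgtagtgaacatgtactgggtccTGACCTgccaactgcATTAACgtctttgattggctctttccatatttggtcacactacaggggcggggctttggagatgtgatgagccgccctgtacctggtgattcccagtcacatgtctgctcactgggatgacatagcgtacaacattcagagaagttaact
The 3 Slco1a windows were aligned end to end, and identity was counted over all columns of the alignment, gaps included. Slco1a1 and Slco1a3 were identical at 50.7% of columns, Slco1a1 and Slco1a6 at 47.5%, and Slco1a3 and Slco1a6 at 50.6%. Slco1a1 and its other neighbour Slco1a4 were identical at 66.8%. Slc22a25 held 1 match to each of the 3 motifs, and Abcc2 held 2 of AGGTCA and 1 of GTTAAT. Slco1a1 held none of these letters. Of all 33469 windows of this length, 7.45% held GTTAAT, 16.2% held AGGTCA and 14.8% held CAAAGT. Windows existed for 43 of the 52 transporter genes, of which 5, 9 and 7 held them, 11.6%, 20.9% and 16.3%. A match is a run of letters and not evidence of a bound site.

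The comparison of the strains asked which transporters differ between the SBH/y and the SBN/y kidney. With 2 kidneys, 3 of the 52 genes were higher and 12 lower in SBH/y at an adjusted p below 0.05 (limma, Benjamini-Hochberg over all probe sets). Of all genes, 5.5% were called higher and 5.54% lower in this comparison. With 1 kidney, 6 were higher and 13 lower, where 10.2% of all genes were called higher and 7.48% lower. The median difference of the 52 genes was -0.05 in both comparisons, against 0.01 over all genes in both. By family, 6 of 16 Slc22 genes were lower and 0 higher with 2 kidneys, and 7 were lower and 2 higher with 1. Of 13 Slco genes, 3 were lower and 1 higher with 2 kidneys, and 2 were lower and 2 higher with 1. Of 9 Abcc genes, 2 were lower and 1 higher in each state, and of 6 Abcg genes 1 was lower and 0 higher in each. Of 7 Abcb genes, 1 was higher in each state and 1 lower with 1 kidney alone, and Slc47a1 was called in neither.

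The 2 strain comparisons use different arrays. In both, 10 genes were lower in SBH/y (Abcc8, Abcg2, Slc22a4, Slc22a12, Slc22a13, Slc22a21, Slc22a24, Slc22a25, Slco1a1 and Slco1a3) and 3 were higher (Abcb10, Abcc2 and Slco2a1). That is 19.2% of the 52 genes lower and 5.77% higher in both, where 3.82% of all genes were called lower and 4.04% higher in both. As a description across genes, which are not independent, the differences of the 52 genes correlated at 0.89 between the comparisons (Spearman 0.79), against 0.78 (0.56) over all genes, and 42 of 52 (80.8%) had the same sign, against 67.8% of all genes.

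**Figure D1:**
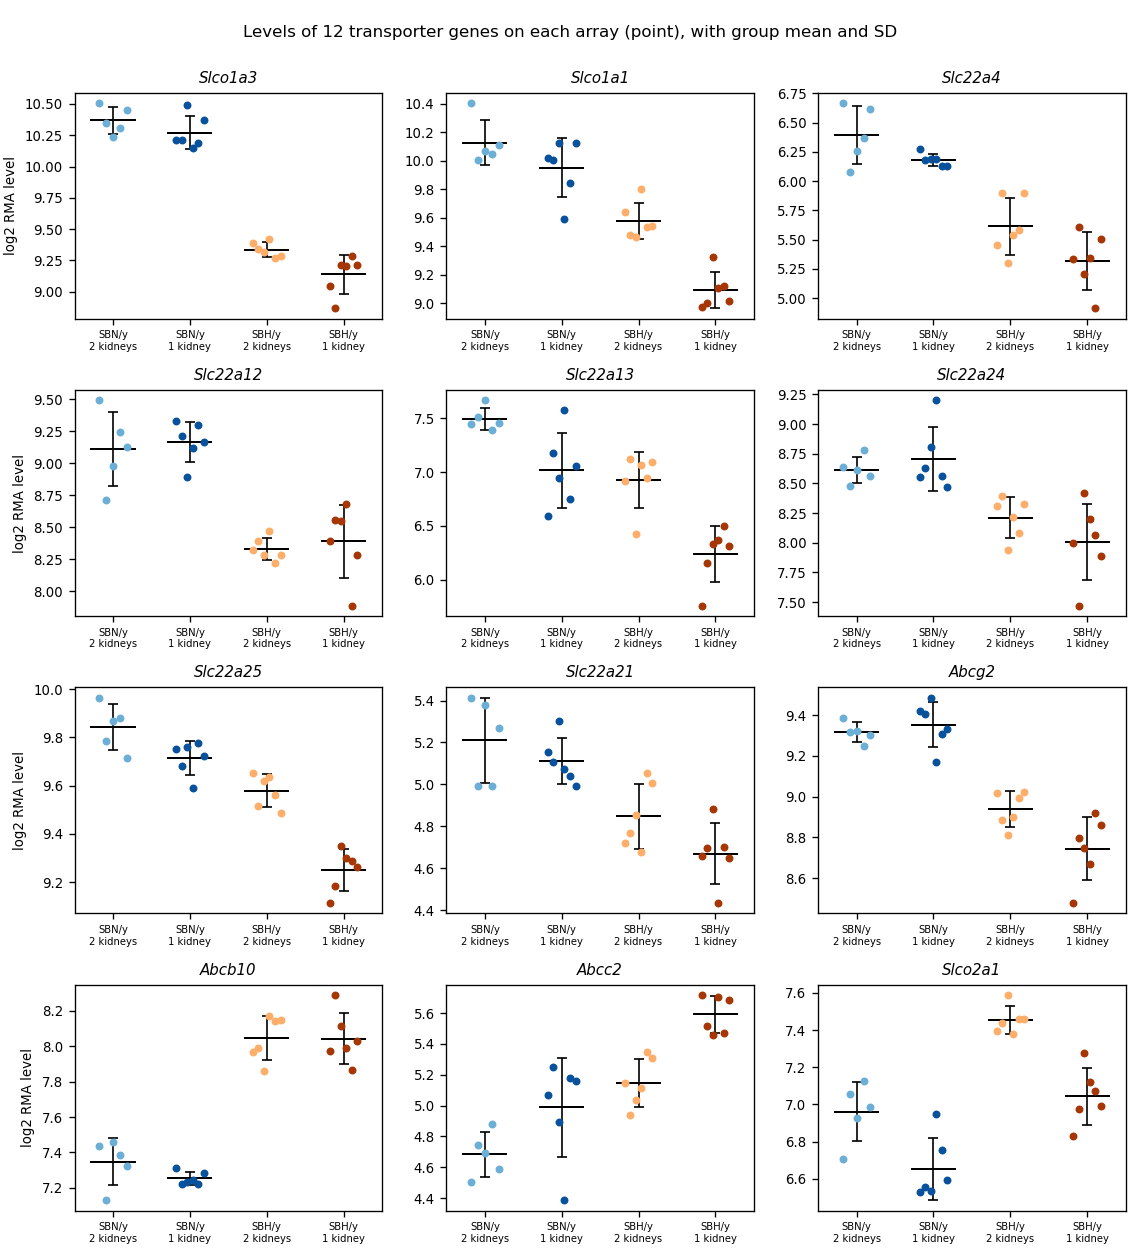
Log2 level (y axis) on each of the 23 arrays (points) in the 4 groups (x axis) for 12 transporter genes, with the group mean (long line) and SD (bars); each panel has its own y axis. The SBH/y points of Slco1a3 lie between 8.87 and 9.42, all below the SBN/y points at 10.15 to 10.51, and those of Abcb10 lie between 7.86 and 8.29, all above the SBN/y points at 7.13 to 7.46.

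Among the OATP uptake carriers, the largest difference was in Slco1a3, a kidney-specific carrier of methotrexate and other anions. With 2 kidneys, the SBN/y arrays read 10.51, 10.35, 10.24, 10.31 and 10.45, while the SBH/y arrays ran from 9.27 through a median of 9.33 to 9.42. With 1 kidney, SBN/y ran from 10.15 (median 10.21) to 10.49 and SBH/y from 8.87 (median 9.21) to 9.28. The strains did not overlap in either state. The level in SBH/y was 2.05-fold lower with 2 kidneys (log2 difference -1.04 ± 0.07, adjusted p = 3.26e-11) and 2.19-fold lower with 1 (-1.13 ± 0.07, adjusted p = 1.46e-12). A second Slco1a3 probe set gave -0.78 ± 0.10 and -0.99 ± 0.09, both past the threshold.

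Slco1a1, an apical tubular carrier of steroid conjugates and bile acids, was also lower in SBH/y. In SBN/y with 2 kidneys the arrays read 10.41, 10.01, 10.07, 10.05 and 10.11, and SBH/y ran from 9.46 (median 9.54) to 9.80. With 1 kidney, SBN/y ran from 9.59 (median 10.01) to 10.13 and SBH/y from 8.98 (median 9.06) to 9.32. No SBH/y array reached the lowest SBN/y array of the same kidney number. The differences were -0.55 ± 0.09 (adjusted p = 7.64e-05) and -0.86 ± 0.09 (adjusted p = 1.94e-08).

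The OATP genes on this chromosome lie in the order Slco1c1, Slco1b2, Slco1a4, Slco1a1, Slco1a3, Slco1a6 and Slco1a5, with no other protein-coding gene between them in RefSeq. The strain difference was called in the 2 adjacent genes Slco1a1 and Slco1a3 and not in the next gene, Slco1a6, another renal OATP, at -0.14 ± 0.07 and -0.20 ± 0.07 (adjusted p = 0.284 and 0.0514). The second of these lay just outside the threshold and was called with repeated quantile normalization, with dim probe sets filtered, with a trended variance, with only the groups compared, with 1 probe set per gene, without both arrays at the ends of the second component and in 6 of the 23 fits that left out 1 array. The difference between neighbouring genes was not tested. Slco1a4 differed by -0.19 ± 0.10 and -0.01 ± 0.09, past no threshold, and Slco1a5, Slco1b2 and Slco1c1 were at the Xist level. These carriers are close paralogs, and how far a probe set of one reads another was not tested.

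Slco2a1, the prostaglandin transporter that ends prostaglandin signalling by uptake, went the other way. The SBN/y arrays with 2 kidneys read 6.71, 7.05, 6.93, 7.13 and 6.99, and SBH/y ran from 7.38 (median 7.45) to 7.59, with no overlap. With 1 kidney the levels overlapped, at 6.53 (median 6.57) to 6.95 in SBN/y and 6.83 (median 7.03) to 7.28 in SBH/y. The level in SBH/y was higher by 0.49 ± 0.08 (adjusted p = 0.000126) and by 0.39 ± 0.08 (adjusted p = 0.000714). Its second probe set gave 0.26 ± 0.09 and 0.19 ± 0.09, in the same direction but past no threshold (adjusted p = 0.0802 and 0.199).

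Slco4a1, a carrier of thyroid hormone and prostaglandins, was called higher in SBH/y with 1 kidney (0.82 ± 0.22, adjusted p = 0.0115), a large difference with a wide spread. SBN/y with 1 kidney ran from 4.84 to 6.42 and SBH/y from 5.80 to 6.87, so the groups overlapped; a second probe set gave 0.60 ± 0.17 (adjusted p = 0.0173). With 2 kidneys the difference was 0.12 ± 0.24, with a 95% interval from -0.36 to 0.60. Slco3a1, a widely expressed OATP, was called lower with 2 kidneys, at -0.23 ± 0.07, and not with 1, at 0.08 ± 0.07. Its call was lost without SBN/y with 2 kidneys replicate 2, 3 or 5, or without SBH/y with 2 kidneys replicate 2 or 5 (largest adjusted p = 0.103), and its second probe set gave -0.09 ± 0.07.

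Among the SLC22 urate and anion carriers, Slc22a12 (URAT1), which reabsorbs urate from the tubular lumen, was 1.72-fold lower in SBH/y in both states. Among animals with 2 kidneys, the SBN/y arrays read 9.49, 8.72, 8.98, 9.24 and 9.13, and the SBH/y arrays ran from 8.22 (median 8.31) to 8.47. With 1 kidney, SBN/y ran from 8.89 (median 9.19) to 9.33 and SBH/y from 7.89 (median 8.47) to 8.68. The strains did not overlap, and the difference was -0.78 ± 0.12 (adjusted p = 2.8e-05) with 2 kidneys and -0.78 ± 0.11 (adjusted p = 9.78e-06) with 1.

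Slc22a13 (OAT10), an apical exchanger of nicotinate and urate, was lower in SBH/y as well. With 2 kidneys, the SBN/y arrays read 7.44, 7.51, 7.67, 7.39 and 7.46, and SBH/y ran from 6.42 (median 7.01) to 7.12. With 1 kidney, SBN/y ran from 6.59 (median 7.002) to 7.58 and SBH/y from 5.76 (median 6.32) to 6.50. No SBH/y array reached the lowest SBN/y array of the same state. The differences were -0.57 ± 0.14 (adjusted p = 0.00815) and -0.78 ± 0.14 (adjusted p = 0.000111); with the GAPDH gap as a covariate the first was -0.50 (adjusted p = 0.0574).

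Slc22a24 and Slc22a25, further organic anion transporters of the family, were lower too. Slc22a25 read 9.97, 9.79, 9.87, 9.88 and 9.72 in SBN/y with 2 kidneys and 9.49 (median 9.59) to 9.65 in SBH/y, and with 1 kidney 9.59 (median 9.74) to 9.78 in SBN/y and 9.11 (median 9.28) to 9.35 in SBH/y. Its differences, -0.26 ± 0.06 (adjusted p = 0.00198) and -0.46 ± 0.05 (adjusted p = 3.11e-07), were small beside those of Slc22a12 but left no overlap. Slc22a24 differed by -0.40 ± 0.13 (adjusted p = 0.0455) and -0.70 ± 0.12 (adjusted p = 0.00013). Its call with 2 kidneys was weak: it was lost in 13 of the 23 fits that left out 1 array, among them 4 SBN/y and 4 SBH/y arrays with 2 kidneys (largest adjusted p = 0.125, without SBN/y with 2 kidneys replicate 4), and with the GAPDH gap as a covariate the difference was -0.17 (adjusted p = 0.47). Slc22a7 (OAT2) was called lower with 1 kidney alone (-0.38 ± 0.13, adjusted p = 0.0419), where 1 SBH/y array at 5.32 lay above every SBN/y array. That call was lost in 9 of the 23 fits that left out 1 array (SBN/y with 1 kidney replicates 1, 2, 3, 4 and 6, and SBH/y with 1 kidney replicates 1, 2, 5 and 6), with the largest adjusted p (0.127) and a difference of -0.29 without SBH/y with 1 kidney replicate 2, an array at an end of the second component. Without the arrays at both ends it was -0.29 (adjusted p = 0.117), and the difference was -0.21 (adjusted p = 0.319) with the GAPDH covariate.

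The classical uptake carriers of para-aminohippurate type, Slc22a6 (OAT1) and Slc22a8 (OAT3), were not called in any comparison at their brightest probe sets. Slc22a6 differed between the strains by 0.01 ± 0.06 (95% interval -0.11 to 0.14) and 0.11 ± 0.06 (-0.01 to 0.23), and Slc22a8 by 0.05 ± 0.06 (-0.06 to 0.17) and 0.01 ± 0.05 (-0.10 to 0.12). The second Slc22a8 probe set did not give the same picture. It read 7.11, 7.45, 7.27, 7.53 and 7.49 in SBN/y with 2 kidneys and 5.71 (median 6.03) to 6.27 in SBH/y, and with 1 kidney 7.28 (median 7.37) to 7.57 in SBN/y and 5.31 (median 5.91) to 6.40 in SBH/y. The strains were far apart on this probe set, at -1.36 ± 0.13 (adjusted p = 1.25e-08) and -1.51 ± 0.12 (adjusted p = 5.16e-10). The sequence of each strain under the probes, and which transcript each probe set reads, were not tested, here and for every other strain difference. RefSeq places Slc22a25, Slc22a8 and Slc22a6 side by side, so the lower Slc22a25 lies next to a gene whose probe sets disagree.

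**Figure D2:**
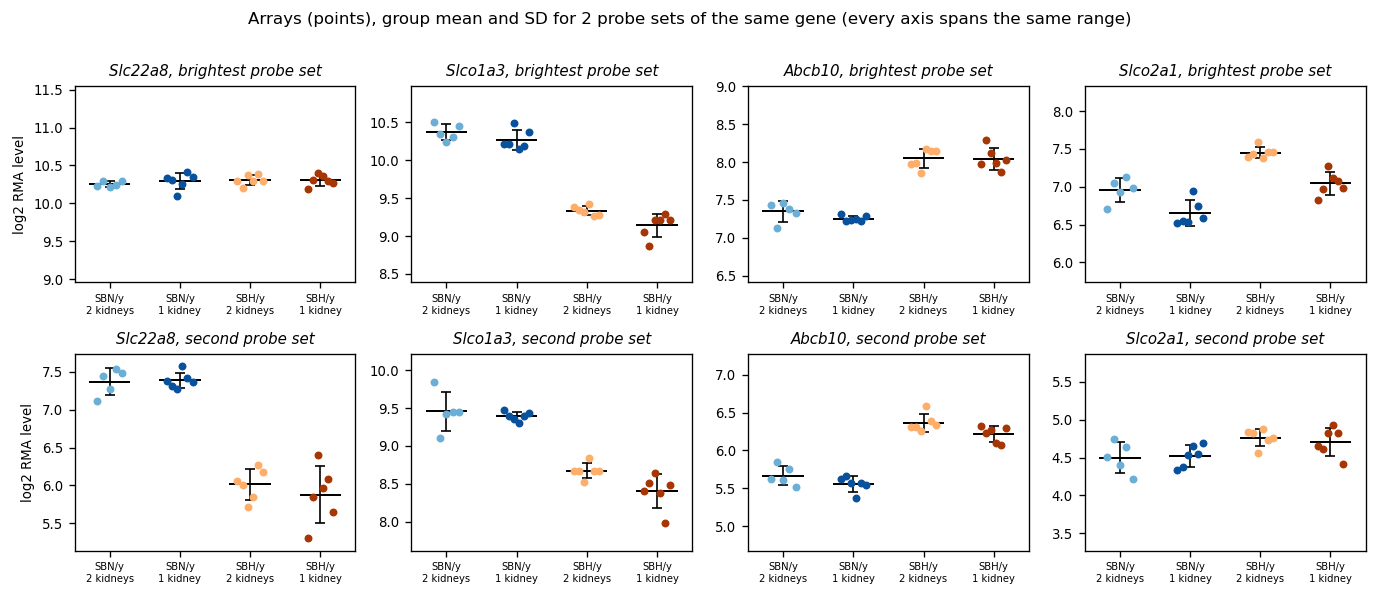
Log2 level (y axis) on each array (points) in the 4 groups (x axis), with group mean and SD, for the brightest probe set (top) and the second probe set (bottom) of 4 genes; every axis spans the same range of log2 units. The strains differ alike on both probe sets of Slco1a3 and Abcb10, while for Slc22a8 the top panel shows no strain difference and the bottom panel shows SBH/y at 5.31 to 6.40 against SBN/y at 7.11 to 7.57.

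The cation and carnitine carriers Slc22a5 (OCTN2, carnitine), Slc22a21 (a carnitine carrier of rodents) and Slc22a4 (OCTN1, ergothioneine) are immediate neighbours in that order. Slc22a4 read 6.67, 6.07, 6.26, 6.37 and 6.62 in SBN/y with 2 kidneys against 5.30 (median 5.56) to 5.90 in SBH/y, and 6.13 (median 6.19) to 6.27 against 4.91 (median 5.34) to 5.61 with 1 kidney. The SBH/y level was 1.72-fold lower (-0.78 ± 0.12, adjusted p = 1.9e-05) and 1.82-fold lower (-0.86 ± 0.11, adjusted p = 1.39e-06), with no overlap. Slc22a21 was lower by a smaller amount, at -0.36 ± 0.09 (adjusted p = 0.0065) and -0.44 ± 0.08 (adjusted p = 0.000361); its strains overlapped with 2 kidneys and not with 1. Slc22a5 had the opposite sign, at 0.18 ± 0.08 (adjusted p = 0.215) and 0.25 ± 0.08 (adjusted p = 0.0326). The latter call was lost without SBN/y with 1 kidney replicate 2 or 3 or SBH/y with 1 kidney replicate 2, 3 or 6, down to 0.18 (adjusted p = 0.105) without SBH/y with 1 kidney replicate 3, and was also lost without both arrays at the ends of the second component (0.25, adjusted p = 0.0524). Slc22a15, a carrier of zwitterions such as ergothioneine, was called higher with 1 kidney (0.31 ± 0.07, adjusted p = 0.00285).

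Slc22a2 (OCT2), the basolateral uptake carrier of organic cations such as metformin, differed between strains by -0.03 ± 0.06 and -0.16 ± 0.06, past no threshold (adjusted p = 0.888 and 0.0636). Slc47a1 (MATE1), the exporter that follows it on the urine side, differed by 0.11 ± 0.06 (95% interval -0.00 to 0.23) and 0.13 ± 0.05 (0.02 to 0.25), with adjusted p = 0.274 and 0.112.

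Among the exporters, Abcg2 (BCRP), an apical pump of urate, sulfate conjugates and drugs, was lower in SBH/y. It read 9.39, 9.31, 9.32, 9.25 and 9.30 in SBN/y with 2 kidneys and 8.81 (median 8.95) to 9.02 in SBH/y, and with 1 kidney 9.17 (median 9.37) to 9.49 in SBN/y and 8.48 (median 8.77) to 8.92 in SBH/y. The strains were separate in both states. The level was 1.3-fold lower with 2 kidneys (-0.38 ± 0.07, adjusted p = 0.000335) and 1.52-fold lower with 1 (-0.61 ± 0.07, adjusted p = 8.81e-08).

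Abcc2 (MRP2), the apical pump of glutathione and glucuronide conjugates, was higher. With 2 kidneys, the SBN/y arrays read 4.50, 4.74, 4.70, 4.88 and 4.59 and SBH/y ran from 4.94 (median 5.13) to 5.35, and with 1 kidney SBN/y ran from 4.39 (median 5.11) to 5.25 and SBH/y from 5.46 (median 5.60) to 5.72. The groups did not overlap, and the SBH/y level was 1.38-fold higher (0.47 ± 0.11, adjusted p = 0.00598) and 1.52-fold higher (0.60 ± 0.11, adjusted p = 0.000161). With the GAPDH covariate the difference with 2 kidneys was 0.32 (adjusted p = 0.104). The other conjugate and nucleotide pumps on the core list, Abcc3 (MRP3) and Abcc4 (MRP4), differed between strains by 0.01 ± 0.08 and -0.10 ± 0.08, and by -0.07 ± 0.07 and -0.05 ± 0.07.

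Of the 3 genes higher in SBH/y in both states, the largest difference was in Abcb10, a transporter of the inner mitochondrial membrane linked to haem synthesis. It read 7.44, 7.13, 7.46, 7.38 and 7.33 in SBN/y with 2 kidneys and 7.86 (median 8.07) to 8.17 in SBH/y, and with 1 kidney 7.22 (median 7.24) to 7.31 in SBN/y and 7.86 (median 8.01) to 8.29 in SBH/y. The differences were 0.70 ± 0.07 (1.63-fold, adjusted p = 4.81e-08) and 0.79 ± 0.07 (1.73-fold, adjusted p = 1.5e-09), and a second probe set gave 0.70 ± 0.07 and 0.66 ± 0.07, both called. Of 7 red cell markers, 2 were called lower in SBH/y with 2 kidneys (Hbb at -0.53, Alas2 at -0.81) and 0 higher, and their mean level was 6.29 to 6.40 on SBN/y arrays and 6.004 to 6.25 on SBH/y arrays; their part in the Abcb10 value was not tested. Abcb6, a porphyrin transporter, was called lower with 1 kidney (-0.21 ± 0.06, adjusted p = 0.0121) and stood at -0.12 ± 0.06 with 2.

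Abcb1a (MDR1a, P-glycoprotein) differed by -0.19 ± 0.12 and -0.31 ± 0.11, past no threshold (adjusted p = 0.399 and 0.0665). A probe set annotated to both Abcb1a and Abcb1b was higher in SBH/y with 1 kidney (0.46 ± 0.09, adjusted p = 0.000614), and the share of each gene in it cannot be told apart. Abcc6, whose activity in the body keeps soft tissue from calcifying, was lower with 2 kidneys (-0.35 ± 0.07, adjusted p = 0.00105) and stood at -0.19 ± 0.07 with 1 (adjusted p = 0.0639). Abcc8, the sulfonylurea receptor of ATP-sensitive potassium channels, was dim and lower in both states (-0.30 ± 0.08, adjusted p = 0.0156, and -0.34 ± 0.08, adjusted p = 0.00243). The first of these was lost without SBN/y with 2 kidneys replicate 1 or 5 (largest adjusted p = 0.0641) and with the GAPDH covariate (-0.28, adjusted p = 0.0702). Abcc10 (MRP7), a pump of amphipathic conjugates and drugs, was called lower with 1 kidney (-0.21 ± 0.06, adjusted p = 0.0276), and that call was lost without SBN/y with 1 kidney replicate 2, 4 or 5 or SBH/y with 1 kidney replicate 4 or 6 (largest adjusted p = 0.0807, without SBH/y with 1 kidney replicate 4) and with the GAPDH covariate (-0.16, adjusted p = 0.164).

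**Figure D3:**
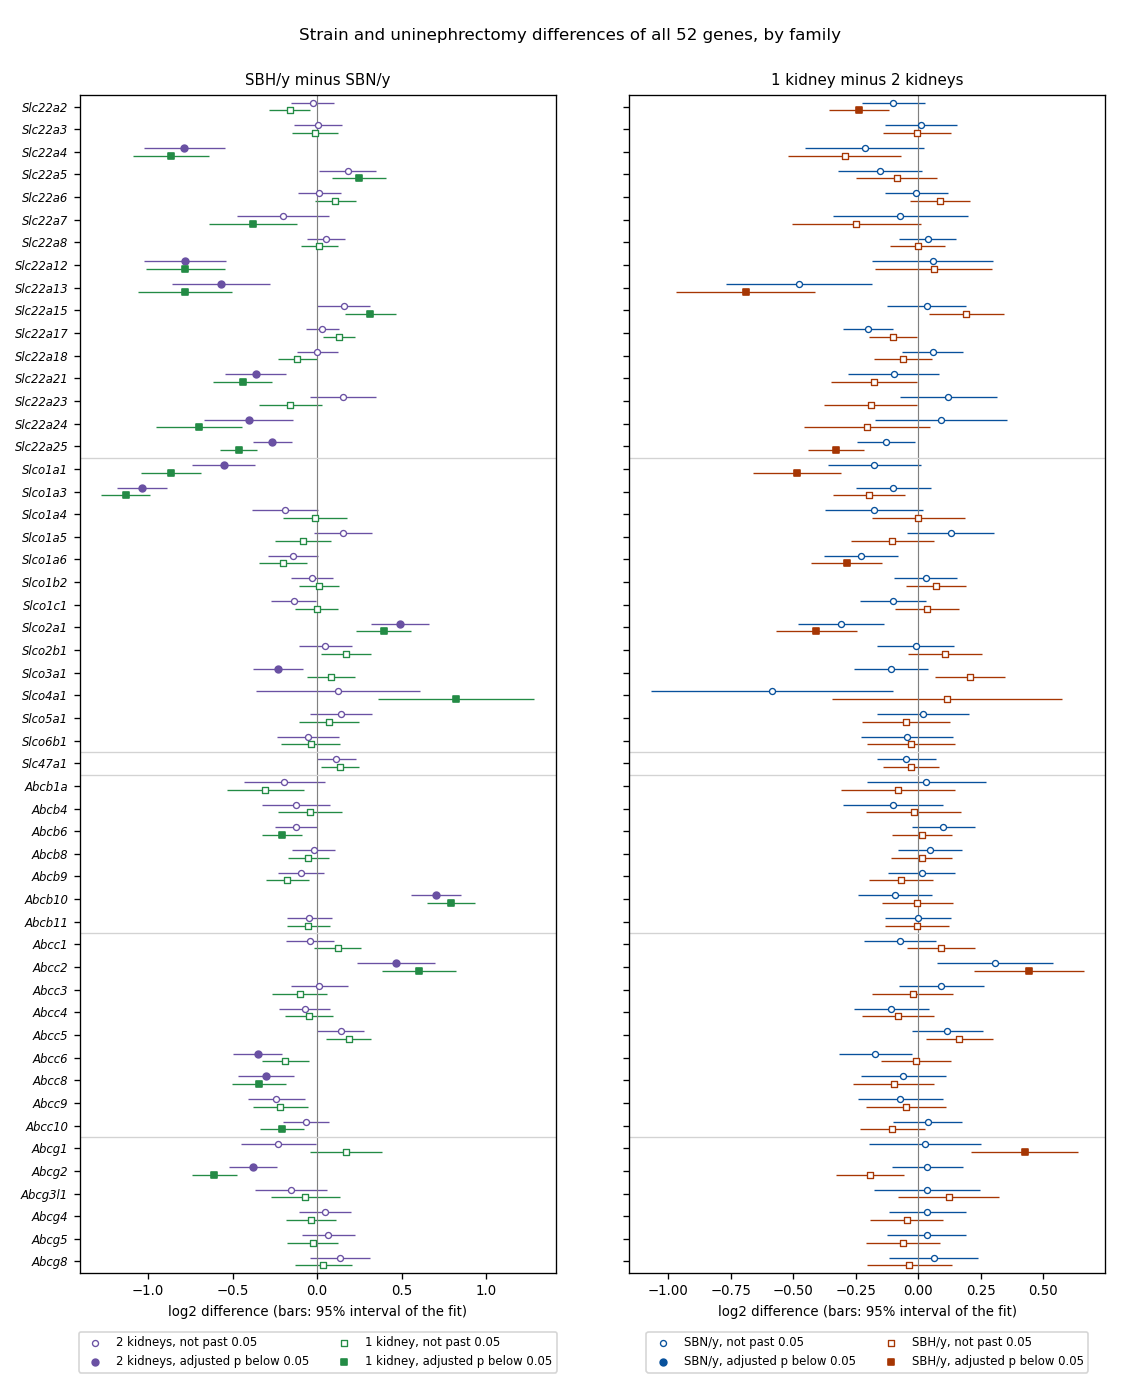
Log2 differences (x axis) of all 52 genes (y axis, by family, families separated by grey lines), for strain with 2 and with 1 kidney (left) and for uninephrectomy in each strain (right); lines are 95% intervals of the fit and filled symbols are past an adjusted p of 0.05. Most filled symbols on the left lie below 0, from -1.13 for Slco1a3 to 0.82 for Slco4a1, and on the right only SBH/y symbols are filled.

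The comparison of 1 with 2 kidneys asked how the transporters of the remaining kidney differ 3 months after uninephrectomy. In SBN/y, limma called 0 of the 52 genes, where 0.155% of all genes were called higher and 0.0985% lower; at an unadjusted p below 0.05 there were 8, 1 higher (Abcc2) and 7 lower, 15.4% of the 52 genes against 8.36% of all genes. In SBH/y, 2 genes rose and 6 fell, where 4.76% of all genes were called higher and 2.4% lower. The median difference of the 52 genes was -0.01 in SBN/y and -0.04 in SBH/y, against 0.00 over all genes in both.

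In SBH/y the genes that fell were the uptake carriers Slco1a1, Slco1a6, Slco2a1, Slc22a2, Slc22a13 and Slc22a25, and those that rose were the exporters Abcc2 and Abcg1. The 2 of 52 that rose are not above the 4.76% of all genes called higher. Other ABC exporters of the core list were not called: Abcg2 at -0.19 ± 0.07 (adjusted p = 0.0988), Abcb1a at -0.08, Abcc3 at -0.02 and Abcc4 at -0.08. Abcg2 was called with repeated quantile normalization, with a trended variance and without SBH/y with 1 kidney replicate 5. The OATP Slco3a1 was higher by 0.21 ± 0.07 (adjusted p = 0.0877). It was called with dim probe sets filtered and without SBH/y with 1 kidney replicate 4. Slc22a7 (-0.25) was called without replicate 3 of that group. Slc22a4 (-0.29) was called without both arrays at the ends of the second component. This comparison shares the 2-kidney SBH/y arrays with 1 strain comparison and the 1-kidney SBH/y arrays with the other, so its values stand beside those of strain and are not independent of them.

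The largest change in SBH/y was in Slc22a13, from 6.42 (median 7.01) to 7.12 with 2 kidneys to 5.76 (median 6.32) to 6.50 with 1. The ranges overlapped through replicate 3 of the 2-kidney group, the array at the end of the second component. The level fell 1.61-fold (-0.69 ± 0.14, adjusted p = 0.00175), and in SBN/y the difference was -0.48 ± 0.14 (adjusted p = 0.248).

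Slco1a1 in SBH/y went from 9.46 (median 9.54) to 9.80 with 2 kidneys to 8.98 (median 9.06) to 9.32 with 1, with no overlap, and fell 1.4-fold (-0.49 ± 0.09, adjusted p = 0.000611). In SBN/y the difference was -0.18 ± 0.09 (adjusted p = 0.699). Slco1a6 in SBH/y went from 9.84 (median 10.04) to 10.16 to 9.64 (median 9.75) to 9.82, again with no overlap (-0.29 ± 0.07, adjusted p = 0.0115), and the difference in SBN/y was -0.23 ± 0.07 (adjusted p = 0.304). The neighbour between them, Slco1a3, differed by -0.20 ± 0.07 in SBH/y (adjusted p = 0.116) and by -0.10 ± 0.07 in SBN/y.

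Slc22a25 in SBH/y went from 9.49 (median 9.59) to 9.65 to 9.11 (median 9.28) to 9.35, without overlap (-0.33 ± 0.05, adjusted p = 0.000278), against -0.13 ± 0.06 in SBN/y (adjusted p = 0.568). Slc22a2, the cation uptake carrier, went from 10.67 (median 10.79) to 10.84 to 10.43 (median 10.53) to 10.64, a fall of 1.18-fold with no overlap (-0.24 ± 0.06, adjusted p = 0.0132), against -0.10 ± 0.06 in SBN/y (adjusted p = 0.788). Its partner on the urine side, Slc47a1, differed by -0.03 ± 0.05 in SBH/y (95% interval -0.14 to 0.08) and by -0.05 ± 0.06 in SBN/y. Slc22a6 and Slc22a8 differed in SBH/y by 0.09 ± 0.06 (-0.03 to 0.21) and -0.00 ± 0.05 (-0.11 to 0.11), and the second Slc22a8 probe set by -0.13 ± 0.12 (adjusted p = 0.696).

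Slco2a1 in SBH/y went from 7.38 (median 7.45) to 7.59 to 6.83 (median 7.03) to 7.28, with no overlap (-0.41 ± 0.08, adjusted p = 0.00165), against -0.31 ± 0.08 in SBN/y (adjusted p = 0.17). Its second probe set gave -0.06 ± 0.09 in SBH/y, past no threshold. The prostaglandin transporter is made in endothelium as well as in tubules, and 2 of 10 endothelial markers were also lower (Kdr at -0.26, Emcn at -0.31); the mean level of the 10 ran from 7.54 to 7.67 with 2 kidneys and from 7.47 to 7.57 with 1. The part of endothelial RNA in the Slco2a1 value was not tested.

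Of the 2 exporters that rose in SBH/y, Abcc2 went from 4.94 (median 5.13) to 5.35 to 5.46 (median 5.60) to 5.72, with no overlap (1.36-fold, 0.44 ± 0.11, adjusted p = 0.0119), against 0.31 ± 0.11 in SBN/y (adjusted p = 0.428). With the GAPDH covariate the rise in SBH/y was 0.34 (adjusted p = 0.0804). Abcg1, which exports cholesterol to HDL and is abundant in macrophages, went from 6.20 (median 6.28) to 6.58 to 6.49 (median 6.76) to 7.12, with overlap (1.34-fold, 0.43 ± 0.10, adjusted p = 0.0124), against 0.03 ± 0.11 in SBN/y. Without the 2 arrays at the ends of the second component its difference was 0.35 (adjusted p = 0.0748), and its other probe sets gave -0.00 and 0.12. Of 12 myeloid markers, 9 were higher in SBH/y with 1 kidney than with 2, among them Lyz2 (0.46), Laptm5 (0.54), Csf1r (0.45) and Cd68 (0.67), and 0 were lower. Their mean level ran from 6.02 to 6.14 with 2 kidneys and from 6.39 to 6.77 with 1 in SBH/y; on SBN/y arrays it lay at 5.87 to 5.95 and 5.96 to 6.36. The part of myeloid RNA in the Abcg1 value was not tested.

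**Figure D4:**
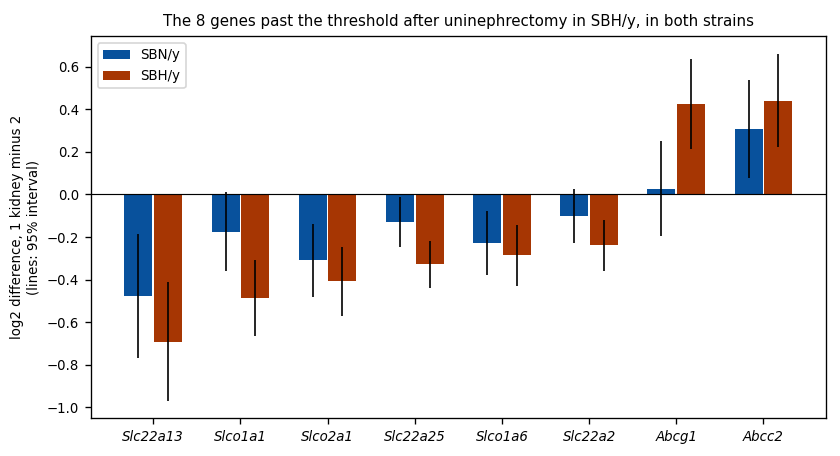
Log2 difference of 1 kidney minus 2 (y axis) in SBN/y (blue) and SBH/y (red) for the 8 genes (x axis) past the threshold in SBH/y; black lines are 95% intervals of the fit. All 8 pairs have the same sign in both strains, and the SBN/y bars run from -0.48 for Slc22a13 to 0.31 for Abcc2.

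All 8 genes called in SBH/y had the same sign in SBN/y, on different arrays. The like share was not counted over all genes called in SBH/y. The shared sign is therefore not shown to be particular to the transporters. Over all 52 genes the responses of the strains had the same sign in 30 (57.7%), against 58.7% of all genes, and correlated at 0.48 across genes, against 0.38 over all genes. The difference between the responses, tested as an interaction, was called for 0 of the 52 genes by limma, where 0.331% of all genes were called higher and 0.0774% lower; 7 genes (13.5%) had an unadjusted p below 0.05, against 9.54% of all genes. For Slco1a1 the SBH/y response was lower by -0.31 (95% interval -0.57 to -0.05, adjusted p = 0.472), for Slc22a25 by -0.20 (-0.36 to -0.04, adjusted p = 0.456) and for Slc22a13 by -0.21 (-0.62 to 0.19, adjusted p = 0.868). For Abcg1 it was higher by 0.40 (0.09 to 0.71, adjusted p = 0.412), for Slco3a1, which had the smallest p, by 0.32 (0.11 to 0.52, adjusted p = 0.251) and for Slco4a1, which had the largest value, by 0.70 (0.03 to 1.37, adjusted p = 0.582). A weaker response in SBN/y was therefore not shown. Leaving out SBN/y with 1 kidney replicate 4 added 3 calls in SBN/y. Abcc2 rose by 0.43 ± 0.09 (adjusted p = 0.0276), Slc22a13 fell by 0.59 (adjusted p = 0.0475) and Slco2a1 fell by 0.37 (adjusted p = 0.0395). That array was the lowest of its group for Abcc2 (4.39) and the highest for Slc22a13 (7.58) and Slco2a1 (6.95). Removing it therefore had to enlarge these 3 differences. Each other fit that left out 1 array called 0 of the 52 genes in SBN/y.

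General proximal tubule markers are given beside the transporters, and the part of tubular cell number in the transporter values was not tested. Of 18 such markers (megalin, cubilin, phosphate and glucose carriers and tubular enzymes), 0 were called in either direction after uninephrectomy in either strain. Their median difference was -0.01 in SBN/y and -0.05 in SBH/y, beside -0.01 and -0.04 for the 52 transporter genes. Between strains 2 were higher in SBH/y with 2 kidneys (Slc4a4 at 0.34, Cubn at 0.27), 1 was higher with 1 kidney (Slc4a4 at 0.31), and 0 were lower. Of 11 fat and adrenal genes, 3 fat genes were called lower in SBH/y with 2 kidneys (Ucp1 at -1.77, Fabp4 at -0.83, Adipoq at -0.31) and 0 higher. The other fat genes measured were not called: Cidea at -0.33, Lep at -0.06, Plin1 at 0.00 and Cidec at 0.16.

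A list of 20 other urate, bile acid, peptide, nucleoside and anion carriers and urate enzymes did not move as a block. With 2 kidneys, Slc10a2, the apical bile acid carrier (0.68), and Slc5a12, a lactate carrier (0.76), were higher in SBH/y and Slc29a1, a nucleoside carrier (-0.37), was lower; the list's median was 0.09. With 1 kidney 4 were higher and 3 lower. After uninephrectomy in SBH/y, Slc10a2 rose (0.39) while Slc15a1, a peptide carrier (-0.32), Slc51a, the basolateral bile acid exporter subunit (-0.30), and Slc29a1 (-0.23) fell; in SBN/y 0 of 20 were called. Of 16 scaffolds and regulators of these carriers, 1 was called in each of the strain comparisons and in SBH/y after uninephrectomy. Nr1i3 (CAR) was higher with 2 kidneys (0.32), Ppara was lower with 1 (-0.34), and Nherf2, a membrane scaffold, fell in SBH/y (-0.25). Nr1i3 was dim. Its group means with 2 and 1 kidneys were 2.98 and 3.05 in SBN/y, within the Xist range (up to 3.13). In SBH/y they were 3.30 and 3.16, just above that range. Its strain difference with 1 kidney was 0.10 (adjusted p = 0.562). The scaffold Pdzk1, which binds several apical carriers, differed by 0.12 between strains with 2 kidneys and by -0.02 after uninephrectomy in SBH/y, and Hnf4a by 0.04 and -0.05, all past no threshold.

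Of the 52 genes, 24 (46.2%) were called in at least 1 of the 5 comparisons, against 22.6% of all genes, and 28 in none. Those 28 include Slc22a6, Slc22a8 (brightest probe set), Slc47a1, Abcb1a, Abcc3 and Abcc4 of the core list, the 7 genes at the Xist level, and Slc22a18, an orphan carrier of an imprinted region, whose strain differences were -0.00 ± 0.06 and -0.12 ± 0.06.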

How the data were processed

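Total RNA of 23 rat kidney samples was labelled and hybridised to Affymetrix arrays. The authors deposited log2 values, 1 per probe set and array; the submitters' processing notes name GCOS and RMA without versions. RMA equalises the arrays' distributions, so a change in total mRNA could not be seen; batches are not given in the sources used here. Of 31099 probe sets, 57 controls were left out and 31042 tested; 20826 had 1 gene symbol, 436 several and 9780 none in the array annotation, and 2 probe sets shared by several of these genes were not members. One limma fit (limma 3.58.1, R 4.3.3) with 4 group means, constant prior variance and no covariate gave all contrasts, two-sided, with Benjamini-Hochberg adjustment over 31042 probe sets and a threshold of 0.05; it was checked on simulated data. Genes are counted and named at their brightest probe set. Named genes are every transporter past the threshold (at most 14 per direction), the core list, and up to 4 genes per companion list; others that appear were chosen after their values were seen. The members and lists were chosen with earlier results of these data known. Promoters were aligned globally with Biopython 1.88 (match 1, mismatch -1, gap -2 and -0.5). The number of arrays limits the precision. Alternatives were a repeat of the quantile normalization, leaving out dim probe sets, a trended robust variance, fits on only those groups compared, adjustment over 1 probe set per gene, the second-brightest probe set, a replicate block, the GAPDH gap as a covariate, each array left out and, added after seeing the data, the arrays at both ends of the second component left out together.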

Additional observations from a re-analysis of the deposited data

Results flagged for a closer look

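Within the 30 named transporter genes, 3 of 120 groups held an array far from the rest of its group by Dixon's test, which chance alone gives in about 1 group in 20. Slc22a13 in SBH/y with 2 kidneys replicate 3 read 6.42, with the nearest array at 6.92. Slc47a1 in SBN/y with 1 kidney replicate 5 read 10.03, the highest of its group, with the nearest at 9.98. Slco1a1 in SBN/y with 2 kidneys replicate 1 read 10.41, the highest of its group, with the nearest at 10.11.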

How the results depend on the processing

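Of 42 calls of a gene in a comparison, 32 held under every alternative in which they were tested other than the next probe set (the dim filter leaves Abcc8 untested). Under these alternatives 10 were lost at least once and 0 changed sign. The next probe set, where a called gene had one, kept fewer. For strain it kept 2 calls and lost 2 with 2 kidneys, and kept 3 and lost 1 with 1 kidney. After uninephrectomy in SBH/y, 1 call was lost (Slco2a1) and 1 changed sign (Abcg1). After uninephrectomy in SBN/y the count of 0 became 1 with dim probe sets filtered and 1 with 1 probe set per gene (Slc22a17, the lipocalin-2 receptor, outside the naming rule, at -0.20 with adjusted p = 0.0379 and 0.0485), and leaving out single arrays gave 0 to 3, with 3 without SBN/y with 1 kidney replicate 4. Leaving out single arrays gave 12 to 16 calls for strain with 2 kidneys, 16 to 22 with 1 (19 with all arrays, 24 with the dim filter and 26 with 1 probe set per gene, gaining Abcc5, Abcc6, Abcc9, Slc22a2, Slc22a17 and Slco1a6 in both and Abcb9 in the latter), 8 to 9 after uninephrectomy in SBH/y, and 0 throughout for the interaction. Calls were also lost with repeated quantile normalization (Slc22a24 and Slco3a1 with 2 kidneys), a trended variance (Slc22a24 with 2 kidneys, Abcc10 with 1), only the 2 groups in the fit (Slc22a5 and Slc22a7 with 1 kidney) and the block (Slc22a24 with 2 kidneys, Slc22a7 with 1). The next probe set of Abcg1 gave -0.00494 after uninephrectomy in SBH/y, the other side of 0; the cause was not tested. The deviations of same-numbered samples correlated at -0.17 to 0.26. The labels do not say whether the numbers pair samples, and these correlations cannot decide it. With a replicate block the counts were 14 and 18 for strain with 2 and 1 kidneys. They were 0 and 8 for uninephrectomy in SBN/y and SBH/y, and 0 for the interaction. The dim filter left 38 of the 52 genes, and genes near the Xist level could show a change only poorly.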

Other observations

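A probe set annotated to Abcg3l4 and Abcg3l2, rodent genes related to Abcg2, was outside the member rule and rose after uninephrectomy in SBH/y by 0.28 ± 0.08 (limma, adjusted p = 0.0324). Its levels ran from 6.06 (median 6.33) to 6.42 with 2 kidneys and from 6.49 (median 6.51) to 6.86 with 1, without overlap. In SBN/y the difference was 0.22 ± 0.08 (adjusted p = 0.423). The related gene with a probe set of its own, Abcg3l1, differed by 0.12 ± 0.10 in SBH/y and by 0.03 ± 0.10 in SBN/y.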
